A study of Mus musculus with 4 samples.

Results

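The genes described here encode the collagens and the main glycoproteins and proteoglycans of the extracellular matrix: the small leucine-rich proteoglycans, the lecticans with their link protein and the tenascins, the laminins and nidogens of basement membranes, fibrillin 2, Sparc and periostin. They were chosen by gene symbol from the platform annotation and not by a cut on their values, but with earlier results of these data known. Of 45037 probe sets on the array, 148 carried the symbol of such a gene, and these represented 70 of the 18193 annotated genes, with 1 to 8 probe sets each. A filter on signal left 85 of the probe sets and 52 of the genes, and each of the 52 was represented by its probe set with the highest mean.

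The study set out to find genes that the zinc finger transcription factor ZBTB20 controls as the hippocampus develops. Tissue came from hippocampi of mouse pups at postnatal day 2, dissected by hand and frozen. Arrays labelled knockout held RNA of pups with the ZBTB20 gene knocked out, and arrays labelled control held RNA of wild-type littermates. There were 2 arrays per group, numbered as replicates 1 and 2. The strain, the allele and the number of animals behind an array are not given in the sources used here, and no shared allele or agent is named. Nothing states how the pups were divided among the arrays of a group, so p-values measure only the spread between these arrays. Xist and Eif2s3y, given below, differed in opposite directions between the arrays of each group, so these were not repeats of the same RNA.

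The arrays came on 2 scales, which followed the replicate number. The trimmed mean signal was 497 on the knockout and 498 on the control array of replicate 1, and 156 and 158 on those of replicate 2. Knockout was therefore compared with control within each replicate number, called pair 1 and pair 2, as a difference of log2(signal + 32.56). A single pair has 1 array on each side, so its values carry no p-value. Of 9 Zbtb20 probe sets, 3 had the lower signal on the knockout array of pair 1, 2 on that of pair 2 and 0 on both, so this check did not settle the genotype labels, and "knockout" and "control" below mean arrays so labelled. The Zbtb20 probe set with the widest gaps had 2412 on the knockout and 4939 on the control array of pair 1 and 592 and 284 in pair 2 (log2 -1.02 and 0.98). Were the labels of 1 pair exchanged, every sign of that pair below would turn, and opposite signs in the pairs would become like signs. Whether they were was not tested. The pyramidal neuron gene Neurod6 lay between the 97.8 and 98.4 percentile of signal on the 4 arrays, and Prox1, a marker of dentate granule cells, between 59.97 and 81.3. The arrays also differed in sex-linked, liver and choroid plexus transcripts. Xist had signals of 4093 and 2994 on the knockout and control arrays of pair 1 and 39.9 and 36.3 on those of pair 2, and Eif2s3y had 10.7 and 304.5 in pair 1 and 830 and 714 in pair 2. Albumin (Alb) had 15195 and 39309 on the knockout and control arrays of pair 1, and 45.2 and 42.2 in pair 2. Of 6 choroid plexus markers, 5 were higher in the knockout array of both pairs, with list medians of log2 0.65 and 0.46, and Ttr, the brightest, had 74106 and 62551 in pair 1 and 9232 and 3505 in pair 2. The part of these transcripts' sources in the matrix values was not tested.

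In developing brain most of the space between neurons and glia is filled by hyaluronan and the chondroitin sulfate proteoglycans of the lectican family, which link proteins and tenascins hold in a network. Fibrillar collagens, decorin and lumican belong mainly to the meninges and the walls of larger vessels, while collagen IV, laminins and nidogens form the basement membranes under the endothelium and the pia. In bulk tissue, fewer cells of a type and less RNA per cell cannot be told apart.

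Decorin (Dcn), a small leucine-rich proteoglycan that binds collagen fibrils and growth factors, had the widest differences of all 52 genes, and they ran in opposite directions. Its signal was 1063 on the knockout and 3639 on the control array of pair 1, and 869 and 320 on those of pair 2. The ratio of knockout to control was thus 0.292 in pair 1 and 2.72 in pair 2, or log2 -1.74 and 1.36. These values rest on 1 kept probe set. The other decorin probe set, dim and below the filter, was at 0.57 and -0.05. As a percentile of all probe sets on its array, decorin lay at 84.9 and 95.8 on the knockout arrays of pairs 1 and 2 and at 96.0 and 86.0 on the control arrays, so the groups overlapped. Over both pairs the difference was log2 -0.19 ± 0.61 (SE, n = 2 per group), with adjusted p = 0.9999 in limma. Whether the pairs differed could not be tested, since 4 arrays leave no error for a difference between pairs. Across 38 genes of the whole array (0.302% of 12581) the pairs were over 2-fold apart in opposite directions, and decorin was the only matrix gene among them.

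The other 5 small leucine-rich proteoglycans were also lower in the knockout array of pair 1, though only 5 of all 6 were with any of the 3 other scalings or either other pseudocount setting. Osteoglycin (Ogn), another member that binds collagen, had 196 on the knockout and 576 on the control array of pair 1 (log2 -1.41), and 76.7 and 59.7 in pair 2 (0.24). Its second probe set was at -0.84 and 0.18. With quantile normalization, the probe set that then stood for Ogn was at -0.66 in pair 1. Lumican (Lum), which spaces collagen fibrils, had 198 and 238 in pair 1 and 37.8 and 55.6 in pair 2 (log2 -0.24 and -0.33). Lum lies beside Dcn in the mouse genome, and the neighbours thus had pair 2 differences of opposite sign. Biglycan (Bgn), the closest relative of decorin, had 626 and 829 in pair 1 and 169 and 202 in pair 2 (-0.39 and -0.22), but 1 of its 3 probe sets was at 0.08 in pair 1. Fibromodulin (Fmod) was at -0.90 and 0.21, from a probe set of the kind that may bind other transcripts. Its other 2 kept probe sets, of the same kind, were at 0.24 and -0.51 in pair 1. Prelp was at -0.39 and -0.04, with a second probe set at 0.36 in pair 1. The median of the 6 genes was log2 -0.64 in pair 1 and 0.09 in pair 2, against -0.01 and -0.0006 over all 12581 genes. The pair 1 median was -0.35 with a pseudocount at the 40th percentile, -0.33 with the mean of probe sets and -1.41 over the 3 genes above a filter at the 60th percentile. Lum, Bgn, Fmod and Prelp are named outside the rule for named genes.

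**Figure D1:**
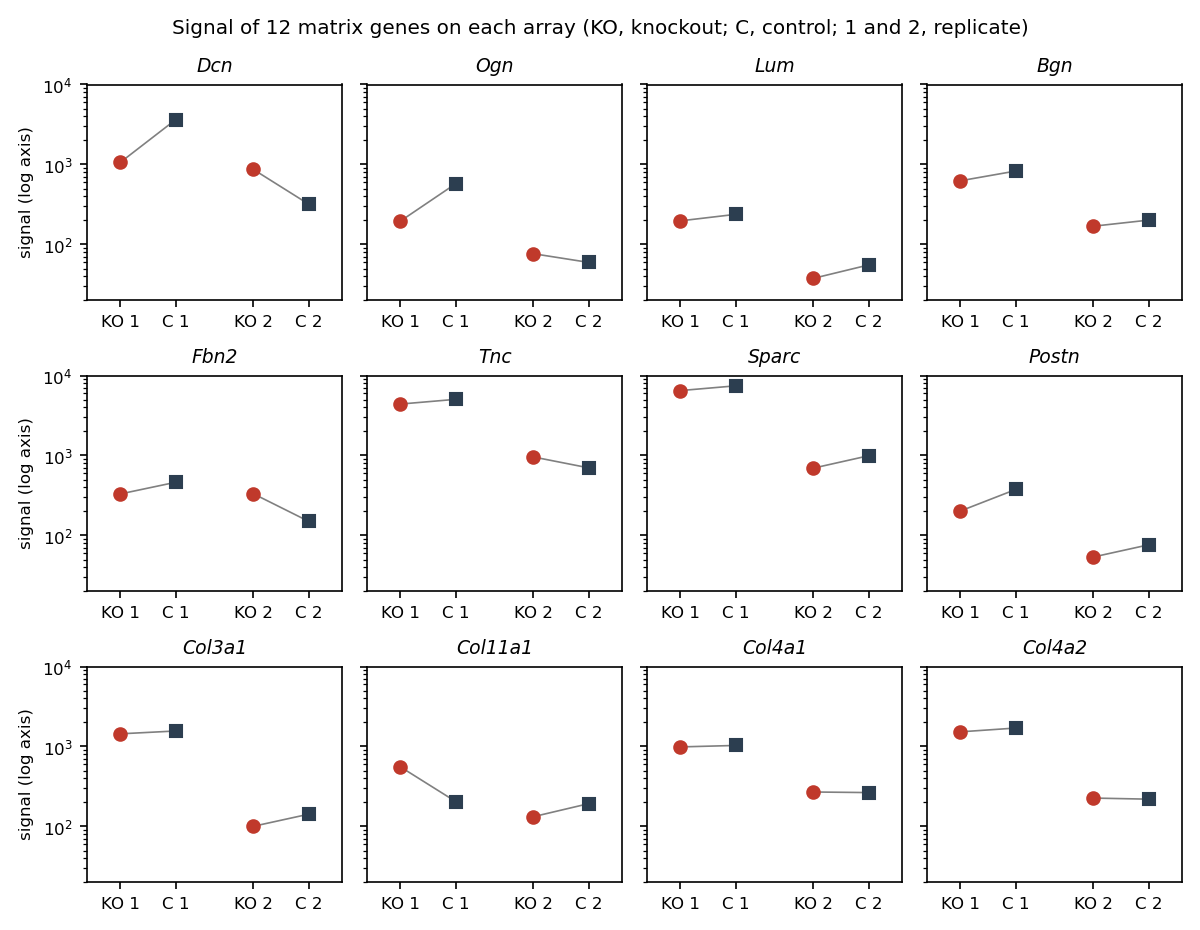
Signal of 12 matrix genes on each of the 4 arrays, on a log axis, with lines joining the knockout array (KO, circles) to the control array (C, squares) of the same replicate number. For Dcn the line runs upward from knockout to control in pair 1 (1063 and 3639) and downward in pair 2 (869 and 320), while Sparc and Postn are lower on the knockout array of both pairs.

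Markers of meningeal fibroblasts, which make much of the tissue's fibrillar matrix, gave the following values beside these genes. Of 12 markers that are no matrix genes, 6 passed the filter. Their summed signal over all 12 was 4977 on the knockout and 5469 on the control array of pair 1, and 876 and 2283 in pair 2. The pair 2 gap came mainly from Zic1, at 331 and 1687, a gene that neurons express as well. Foxc1, a defining transcription factor of these fibroblasts, had 168 and 153 in pair 1 and 32.7 and 31.4 in pair 2, where it lay at the 17.0 and 16.1 percentile. Slc6a13, a transporter of the meninges, had 130 and 418 in pair 1 and 30.7 and 39.95 in pair 2. Slc6a13 stood apart in its list in pair 1, at log2 -1.47, and the other 5 kept markers lay between -0.21 and 0.11. The 6 had medians of -0.11 in pair 1 and -0.14 in pair 2. The part of such cells in the matrix values was not tested.

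Fibrillin 2 (Fbn2), a microfibril protein of embryonic tissue, came next to decorin in pair 2. It had 331 on the knockout and 463 on the control array of pair 1, and 333 and 150 in pair 2, or log2 -0.45 and 0.9986, just short of 2-fold. Its second probe set gave -0.76 and 0.79, so both probe sets were lower in the knockout array of pair 1 and higher in that of pair 2. Tenascin-C (Tnc), a glycoprotein of radial glia and astrocyte precursors, went the same way with smaller values. It had 4395 and 5035 in pair 1 and 959 and 701 in pair 2 (-0.19 and 0.44), and a second probe set at -0.05 and 0.36. Both genes are named outside the rule for named genes.

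Sparc and periostin (Postn) were lower in the knockout array of both pairs. Sparc, a collagen-binding protein of endothelium and astroglia, had signals of 6480 on the knockout and 7430 on the control array of pair 1, and 695 and 994 in pair 2. Its differences were log2 -0.20 and -0.50, and its second probe set gave -0.29 and -0.50. Over both pairs Sparc was at -0.35 ± 0.17 (SE, n = 2 per group, limma adjusted p = 0.9999). Postn, which links collagen to cell surfaces in connective tissue, had 203 and 377 in pair 1 and 53.9 and 76.6 in pair 2 (-0.80 and -0.34). It had the smallest p of the matrix genes in limma, with a difference of -0.57 ± 0.24, an unadjusted p of 0.0499 and an adjusted p of 0.9999. On the knockout array of pair 2 Postn lay at the 36.4 percentile, below the median of the array, so its pair 2 value rests on a dim signal.

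Limma's test over both pairs, with the replicate number as a block, called 0 of the 52 matrix genes and 0 of all 12581 genes (0%) at an adjusted p of 0.05. At an unadjusted p under 0.05 it gave 1 matrix gene, Postn, beside 146 of all genes (1.16%). With robust eBayes the count of matrix genes was 0, and that of all genes was again 146. Without the block it also called 0 genes, with 0 under an unadjusted p of 0.05. Of the matrix genes, 0 were over log2 0.5 apart in the same direction in both pairs, against 10 of all genes (0.0795%). The intervals were wide: for Sparc the 95% interval of the difference ran from -0.74 to 0.05, for Dcn from -1.64 to 1.25 and for Col4a2 from -0.45 to 0.33. The test thus does not show that the genes were alike in both groups.

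**Figure D2:**
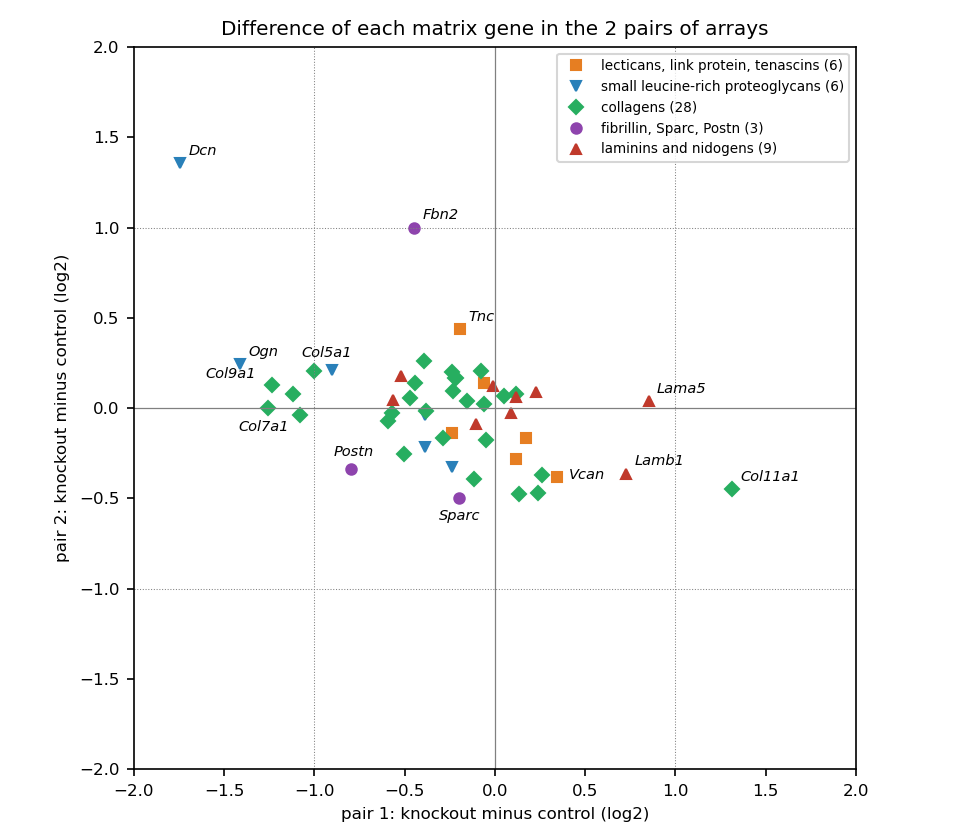
Difference between knockout and control arrays (log2) in pair 1 on the horizontal and pair 2 on the vertical axis, 1 point for each of the 52 matrix genes above the filter, with dotted lines at 2-fold. Dcn stands alone at -1.74 and 1.36, and Col11a1 lies at 1.31 and -0.45. The genes spread more widely along the pair 1 axis, with median absolute differences of 0.28 in pair 1 and 0.17 in pair 2. Over all genes these were 0.21 and 0.12.

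Among the fibrillar collagens, which form the tensile fibres of connective tissue, Col11a1 stood apart. Col11a1, which nucleates thin fibrils in cartilage, had 557 on the knockout and 205 on the control array of pair 1, and 133 and 193 in pair 2. The differences were log2 1.31 and -0.45, and its second probe set gave 0.69 and -0.52. It was the only matrix gene over 2-fold higher in the knockout array of pair 1, where 1.49% of all genes were. Over both pairs limma gave 0.43 ± 0.38 (SE, n = 2 per group, adjusted p = 0.9999). The upstream sequences of Ogn and Col11a1 are shown because these genes were each over 2-fold apart in pair 1 in opposite directions and each turned sign in pair 2, with their 2 probe sets on the same side. They hold the 250 bases before the RefSeq start on GRCm38.p6, plus strand, at chr13:49607765-49608014 for Ogn and chr3:114030290-114030539 for Col11a1. Capitals mark matches on either strand to the letters TATAAA of the TATA box, to GGGCGG, known as the GC box, or to CCAAT.
Ogn: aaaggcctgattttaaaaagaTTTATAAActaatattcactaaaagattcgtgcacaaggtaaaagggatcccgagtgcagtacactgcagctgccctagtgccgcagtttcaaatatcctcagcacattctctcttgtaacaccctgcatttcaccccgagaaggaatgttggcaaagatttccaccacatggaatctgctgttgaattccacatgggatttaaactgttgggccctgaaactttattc
Col11a1: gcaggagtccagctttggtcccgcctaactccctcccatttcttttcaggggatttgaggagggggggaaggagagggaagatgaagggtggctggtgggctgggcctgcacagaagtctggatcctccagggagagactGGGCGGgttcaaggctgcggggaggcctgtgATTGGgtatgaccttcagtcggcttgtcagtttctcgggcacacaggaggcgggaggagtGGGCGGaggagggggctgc
The Ogn stretch held the TATA letters on both strands, in overlapping matches that begin 229 and 227 bases before the start, and the Col11a1 stretch held GGGCGG at 110 and 19 bases before the start and the reverse complement of CCAAT at 79 bases before it. TATAAA was found in 12.4%, GGGCGG in 32.7% and CCAAT in 33.8% of the 32851 RefSeq windows of this length. Windows were given for 52 of the 70 matrix genes, 58 in all, and of these 10 held TATAAA, 31 held GGGCGG and 19 held CCAAT. A match of letters is a description, not a binding site.

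Of the remaining fibrillar collagens, Col5a1 alone was over 2-fold apart in a pair. Col3a1, which forms fine fibres in vessel walls and meninges, had 1440 and 1563 on the knockout and control arrays of pair 1 and 101 and 142 in pair 2 (log2 -0.12 and -0.40). The α2 chain gene of collagen I, Col1a2, was at 0.26 and -0.37, with a second probe set at -0.31 and -0.44. Col1a1, the α1 chain of the same molecule, was at -0.23 and 0.09 with dim signals of 68.3 and 86.1 in pair 1. Col5a1, whose product sets fibril diameter, had 171 and 377 in pair 1 and 100.3 and 82.8 in pair 2, or -1.004 and 0.20. Its second probe set was at 0.07 in pair 1, with 227 and 214, so the gap over 2-fold was not shared by both. Col5a2, beside Col3a1 in the genome, was at -0.24 and 0.20. The 8 fibrillar genes had medians of -0.23 and -0.08, and 6 of them had opposite signs in the pairs.

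The basement membrane collagens Col4a1 and Col4a2, which make up the common collagen IV molecule, had nearly equal signals in both groups. Col4a1 had 988 on the knockout and 1031 on the control array of pair 1, and 269.98 and 265 in pair 2 (log2 -0.06 and 0.02). Col4a2 had 1525 and 1702 in pair 1, and 227 and 220 in pair 2 (-0.15 and 0.04). These genes stand head to head on chromosome 8 and are transcribed away from each other. The 22 bases from the RefSeq start of Col4a2 to that of Col4a1 are shown because these neighbours had small differences in both pairs. They lie on GRCm38.p6 at chr8:11312805-11312826, plus strand, downstream of both starts, where the annotated transcripts overlap. The stretch is thus no gap between the genes. It was not searched for motif letters and none are marked, although it holds GGGCGG.
Col4a1 and Col4a2: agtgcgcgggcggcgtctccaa
The X-linked collagen IV genes Col4a5 and Col4a6, which also are neighbours, differed more. Col4a6, a chain of smooth muscle and epithelial basement membranes, had 67.3 and 179 in pair 1 and 78.2 and 81.4 in pair 2 (-1.08 and -0.04). Col4a5 was at -0.38 and -0.02, and its second probe set was at 0.57 in pair 1.

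Laminins and nidogens, the other basement membrane components, had members on both sides. Nid1, which ties laminin to collagen IV, had 655 on the knockout and 613 on the control array of pair 1, and 264 and 269 in pair 2 (log2 0.09 and -0.02), with a second probe set at -0.76 and 0.18. Lamc1, the γ1 chain found in most laminins, was at -0.01 and 0.12. Lama4, the α chain of vascular laminins, was at 0.23 and 0.09, and Lama2 at 0.12 and 0.06. Lamb1, the β1 chain, had 1049 and 621 in pair 1 and 149 and 201 in pair 2 (0.73 and -0.36). All 3 of its kept probe sets were higher in the knockout array of pair 1 (0.34 to 0.73) and lower in that of pair 2 (-0.36 to -0.10). Lama5 had 54.3 and 15.6 in pair 1 and 149 and 144 in pair 2 (0.85 and 0.04). Its control value in pair 1 was near the floor of the array, at the 14.3 percentile, and its second probe set was at -0.23 in pair 1. The median of the 9 genes was 0.09 in pair 1, which turned to -0.01 with a floor of 1 in place of the pseudocount and when probe sets of a gene were averaged, and 0.04 in pair 2. Endothelial cells and pericytes lay down many of these membranes. The 8 endothelial markers summed to 3416 and 3250 in pair 1 and to 1093 and 1103 in pair 2, but 5 of the 8 were lower in the knockout array of pair 1. Their medians were -0.23 and 0.01, with Cldn5, the brightest, at 0.30 and Tek at -0.83 in pair 1. The 7 pericyte markers summed to 3857 and 4057 in pair 1 and to 946 and 1080 in pair 2. The pair 1 gap between these sums was narrower than that of Vtn alone, at 982 and 1731. Rgs5, another of these markers, went the other way in pair 1, at 1897 and 1200. Of the 6 above the filter, 4 were lower in pair 1, with medians of -0.24 and -0.12, and they ran from -0.86 (Abcc9) to 0.65 (Rgs5) in pair 1. The part of these cells in the matrix values was not tested.

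**Figure D3:**
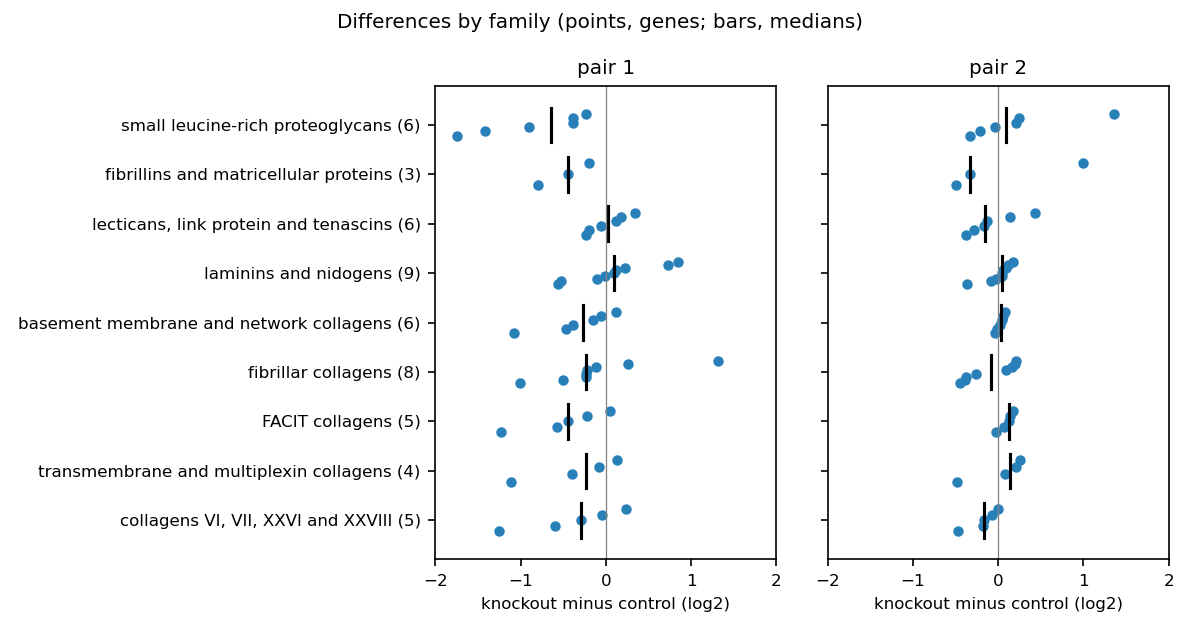
Differences between knockout and control arrays (log2) by matrix family in pair 1 (left) and pair 2 (right), with a point for each gene above the filter and a bar at the median. All 6 small leucine-rich proteoglycans lie below 0 in pair 1 (median -0.64; 5 of 6 with the 3 other scalings), and basement membrane collagens lie within -0.04 and 0.08 in pair 2.

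The lecticans, the aggregating chondroitin sulfate proteoglycans of brain matrix, had differences of either sign. Over the 6 kept genes of the lectican, link protein and tenascin family the median absolute difference was log2 0.18 in pair 1 and 0.22 in pair 2, against 0.21 and 0.12 over all genes. Aggrecan (Acan) did not pass the filter. Neurocan (Ncan) had 10512 on the knockout and 12385 on the control array of pair 1, and 2323 and 2558 in pair 2 (log2 -0.24 and -0.14). Its other 2 probe sets were on the other side of 0 in both pairs, at 0.43 and 0.41 in pair 1 and 0.07 and 0.05 in pair 2. Brevican (Bcan), which accumulates as astrocytes mature, had 4042 and 3579 in pair 1 and 1207 and 1356 in pair 2 (0.17 and -0.16). That probe set is of the kind that may bind other transcripts, and a second Bcan probe set was at 0.51 and -0.17. Versican (Vcan), the lectican of immature matrix and oligodendrocyte precursors, had 1219 and 955 in pair 1 and 391 and 519 in pair 2 (0.34 and -0.38), and its other 2 kept probe sets were at 0.81 and -0.23 in pair 1. The link protein gene Hapln1 was at -0.06 and 0.14, and tenascin-R (Tnr), which crosslinks lecticans, at 0.12 and -0.28. Of these 6 genes with Tnc, 5 had opposite signs in the pairs. Astrocytes and radial glia are among the cells that make Ncan, Bcan and Tnc. The 8 markers of astrocytes and radial glia summed to 41072 and 38551 in pair 1 and to 10763 and 11969 in pair 2. Their medians were log2 0.04 and -0.34. Of the 8, 3 were lower in the knockout array of pair 1 and 7 in that of pair 2. The widest differences were those of Aqp4, at 1.46 and -1.42, and Pax6, at -1.13 and 0.47. Their part in the matrix values was not tested.

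Of the 14 collagens of other types above the filter, 11 were lower in the knockout array of pair 1 and 7 were higher in that of pair 2. Col9a1, a collagen on the surface of cartilage fibrils, had 132 on the knockout and 355 on the control array of pair 1, and 106 and 93.7 in pair 2 (log2 -1.23 and 0.13). A second Col9a1 probe set gave -0.70 and 0.12. Col15a1, a basement membrane collagen of vessels and muscle, had 74.2 and 199 in pair 1 and 58.3 and 53.4 in pair 2 (-1.12 and 0.08). Col7a1, the anchoring fibril collagen of skin, had 36.0 and 132 in pair 1 and 96.5 and 96.6 in pair 2 (-1.26 and -0.00179). On the knockout array of pair 1, where the median signal was 130, Col7a1, Col15a1 and Col4a6 were all dim. Col19a1, a fibril-associated collagen of neurons, had 1335 and 1289 in pair 1 and 130 and 122 in pair 2 (0.05 and 0.07), with a second probe set at 0.21 and 0.27. Col25a1, a transmembrane collagen of neurons, had 251 and 226 in pair 1 and 198 and 288 in pair 2 (0.13 and -0.48), though its second probe set was at 0.03 in pair 2. Col26a1 had 346 and 288 in pair 1 and 79.8 and 123 in pair 2 (0.24 and -0.47). The collagen VI genes Col6a1, Col6a2 and Col6a3, which form beaded filaments around cells, were at -0.05, -0.59 and -0.29 in pair 1 and -0.17, -0.07 and -0.17 in pair 2. A second Col6a2 probe set was at -1.06 in pair 1 and on the other side of 0 in pair 2, at 0.06.

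Across the 28 collagen genes above the filter, 22 were lower in the knockout array of pair 1 and 13 in that of pair 2. For all 52 matrix genes above the filter these counts were 38 and 25, so 73.1% were lower in pair 1, where 51.4% of all genes were, and 27 were higher in pair 2, where 49.8% of all genes were. With quantile normalization 33 of 52 were lower in pair 1. Without a filter on signal 44 of 70 were (62.9%), against 54.1% of all genes. With a filter at the 60th percentile 16 of 26 were (61.5%), against 48.7%. The median difference of the 52 was log2 -0.23 in pair 1 and 0.03 in pair 2. In pair 1, 7 were over 2-fold lower (Dcn, Ogn, Col7a1, Col9a1, Col15a1, Col4a6 and Col5a1), where 2.58% of all genes were. With Col11a1 this made 8 genes over 2-fold apart, and the count was 3 with quantile normalization. In pair 2, Dcn alone was over 2-fold higher, against 0.254% of all genes, and 0 were over 2-fold lower, against 0.405%. Signs were opposite in the pairs for 31 of the 52, or 59.6%, against 53.5% of all genes. Across genes, which share arrays and are not independent, the log2 differences in pair 1 and in pair 2 gave Pearson's r = -0.50 over the 52 matrix genes, -0.37 over the 51 without Dcn and -0.24 over all genes. The genes above the filter passed on their mean signal, so these shares describe them and not the 18 that did not pass. Liver markers, of which 12 were measured, lay at median percentiles of 68.6 on the knockout and 89.2 on the control array of pair 1, and 22.6 and 19.5 in pair 2. Their part in the matrix values was not tested.

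The 18 genes with no probe set above the filter were Acan, Lama3, Lamb3, Lamc3 and 14 collagen genes, namely Col4a3, Col4a4, Col5a3, Col6a4, Col6a5, Col9a2, Col10a1, Col11a2, Col12a1, Col13a1, Col14a1, Col17a1, Col20a1 and Col24a1. The 63 probe sets below the filter, those of other genes included, reached a signal of at most 147 on any array. Their differences ran from log2 -1.48 to 1.81 in pair 1 and from -0.42 to 0.22 in pair 2. In pair 1, 11 of the 63 were over 2-fold apart, against 10 of the 85 kept probe sets, so gaps of this size in pair 1 also occurred at dim signals.

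Probe sets of the same gene often differed in sign in pair 1. Of 28 genes with several kept probe sets, 12 had probe sets on both sides of 0 in pair 1 and 9 in pair 2. In 0 of the 28 were they over log2 0.5 on both sides. The widest ranges in pair 1 were those of Fmod (1.14), Lama5 (1.08), Col5a1 (1.08) and Vcan (1.04), each with probe sets of both signs. In pair 2 the widest was that of Fmod (0.70), with its 3 probe sets on the same side. Probe sets of Ogn, Fbn2, Tnc, Sparc, Col11a1 and Lamb1 shared their sign in each pair.

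**Figure D4:**
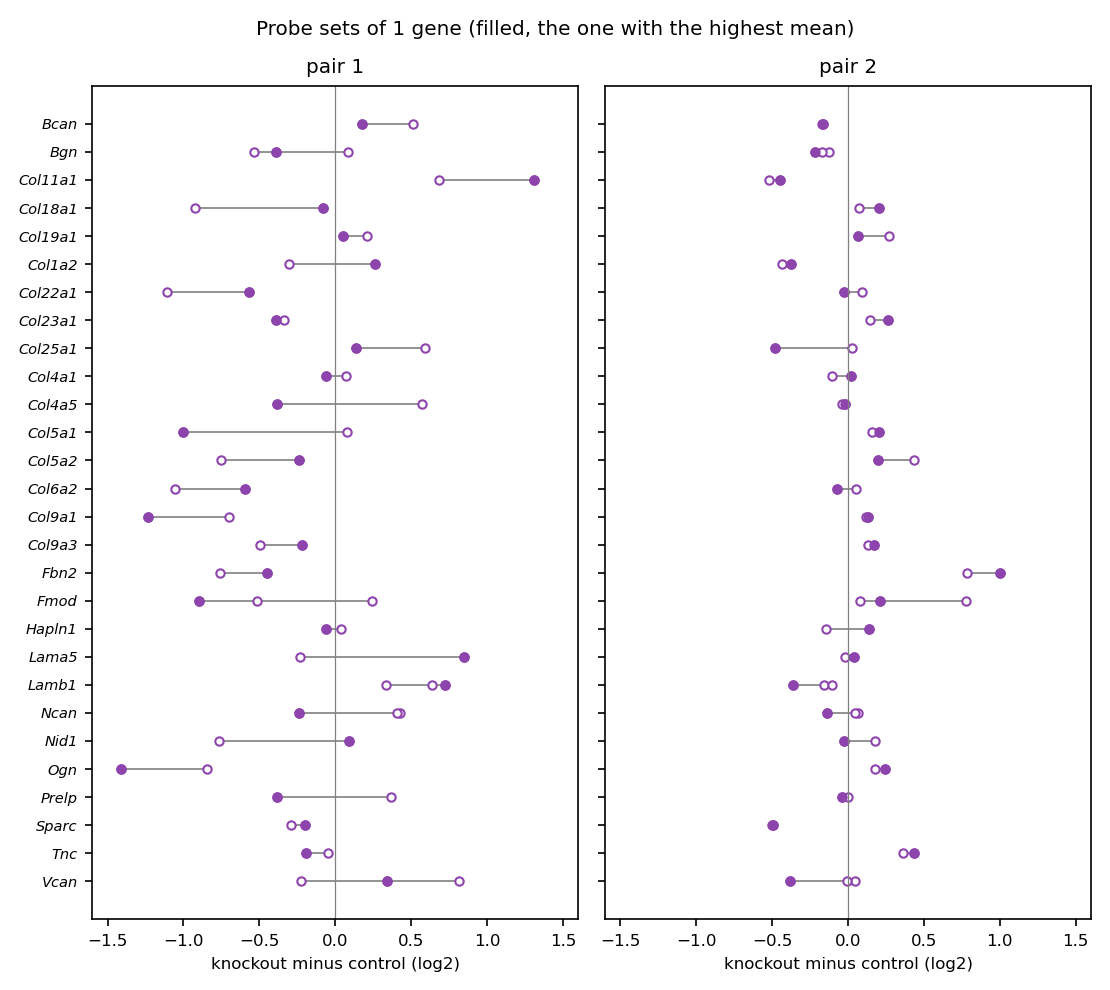
Differences between knockout and control arrays (log2) of every kept probe set for the 28 matrix genes with several, in pair 1 (left) and pair 2 (right). Filled points are the probe sets that represent the gene, and lines join the probe sets of a gene; Fmod, Lama5, Col5a1 and Vcan span over 1 log2 unit in pair 1.

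Genes that build, cut and bind the matrix were examined from lists of 116 genes, of which 90 passed the filter. Limma called 0 of the 90 in either direction, and 2 had an unadjusted p under 0.05 (2.22%), against 1.16% of all genes. Perlecan (Hspg2), the heparan sulfate proteoglycan of basement membranes, had 584 on the knockout and 322 on the control array of pair 1 and 286 and 234 in pair 2, at 0.53 ± 0.19 over both pairs (SE, n = 2 per group, limma adjusted p = 0.9999). The integrin gene Itgb8, whose product activates TGF-β, had 862 and 606 in pair 1 and 524 and 384 in pair 2, at 0.45 ± 0.16 (limma adjusted p = 0.9999). These are the 2 genes with an unadjusted limma p under 0.05, and they are named for it. Both were higher in the knockout array of each pair, as were 5 of the 6 choroid plexus markers. The part of choroid plexus in their values was not tested. Over 2-fold apart in pair 1 were 3 genes that were higher (3.33%, against 1.49% of all genes) and 1 that was lower (1.11%, against 2.58%). In pair 1, Itga9, a receptor for tenascin-C, was at 1.603, the hyaluronan synthase gene Has2 at 1.45 and the metalloproteinase inhibitor gene Timp4 at 1.35, while the collagen crosslinking enzyme gene Lox was at -1.10. In pair 2 they were at 0.03, -0.40, -0.68 and 0.12. The lower of the pair 1 signals was 31.0 for Itga9, 75.7 for Has2 and 36.1 for Lox, each below the median of its array. That of Timp4 was 179, above the median. The medians of the lists in pairs 1 and 2 were 0.01 and 0.02 for 18 genes of collagen processing and crosslinking, -0.04 and -0.02 for 16 proteases and inhibitors, 0.10 and -0.0012 for 19 receptors, -0.28 and 0.02 for 21 other matrix proteins, and 0.04 and 0.01 for 16 genes of chondroitin sulfate and hyaluronan synthesis. Opposite signs in the pairs were found for 55 of the 90, or 61.1%, against 53.5% of all genes.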

How the data were processed

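Total RNA was hybridised to 4 Affymetrix arrays. The authors deposited 1 linear intensity per probe set and array. The submitters' processing notes name MAS5 as the tool; its version, scaling target and genome build are not given in the sources used here. Gene names came from the platform annotation, in which 34945 probe sets had 1 symbol, 932 several and 9160 none. All 70 matrix genes matched RefSeq by Entrez ID, which updated 0 symbols. Signals were transformed as log2(signal + 32.56), the pseudocount being the 20th percentile of all values, so differences of dim genes are understated. The filter required a mean log2 value over the 40th percentile, which 27022 probe sets met. The brightest remaining probe set stood for its gene (12581 genes). Limma 3.58.1 in R 4.3.3 fitted group with the replicate number as a block (lmFit, eBayes with trend, Benjamini-Hochberg over all genes, threshold 0.05), which leaves 1 residual degree of freedom. Deviations of same-numbered arrays correlated at 0.826 across genes. This was computed on unscaled values, so the scale and spread that same-numbered arrays shared enter it, and it is no separate evidence for the block. The labels do not say that a number marks a litter or day. The number of arrays limits precision.

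Genes were named with their 4 signals if over 2-fold apart in a pair, over log2 0.5 apart alike in both, of the 2 smallest p in each direction, or of the highest signal in their family. Any further gene was picked with its values in view. The matrix genes and all lists were chosen with earlier results of these data known. Neighbouring genes and the printed sequences come from RefSeq on GRCm38.p6. Alternatives were another scaling (quantile, 75th percentile, 1 trimmed mean), pseudocount, filter, probe set rule or eBayes setting, no block, and each array left out.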

Additional observations from a re-analysis of the deposited data

How the results depend on the processing

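Limma called 0 matrix genes and 0 of all genes with every alternative run: 3 scalings, 2 other pseudocounts, 2 other filters, 2 other probe set rules, 2 other eBayes settings, no replicate block (0), and each array left out in turn without the block (0 to 0). Leaving out an array within the block leaves no residual degrees of freedom, so it gives no test. At an unadjusted p under 0.05, 146 genes were counted with the block, 80 with eBayes without trend, 146 with robust eBayes (0 matrix genes), 0 without the block and 0 to 70 with an array left out. The medians of the matrix genes kept their sign, from -0.25 to -0.14 in pair 1 and from 0.0015 to 0.05 in pair 2. The count of matrix genes over 2-fold apart in pair 1 (8) became 3 with quantile normalization and 5 with a pseudocount at the 40th percentile, with a filter at the 60th percentile and with the mean of probe sets. In pair 2 the count (1) became 2 with each of the 3 scalings and with a floor of 1. With the floor, Fbn2 passed 2-fold, since its ratio of knockout to control signal was 2.21 without the pseudocount. For the scalings the cause was not tested. Opposite signs were found for 31 of 52 matrix genes in the main setting (59.6%, against 53.5% of all genes). With the filter at the 60th percentile it was 19 of 26 (73.1%, against 53.2%). With every probe set on its own it was 54 of 85 (63.5%, against 53.6%). No named difference over 2-fold changed sign. For Dcn it lay between -1.78 and -1.71 in pair 1 and between 1.28 and 1.55 in pair 2 over the scalings and pseudocounts. MAS5 detection calls were not used here, so dim values have no bound on background.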
